A study of Mus musculus with 2 samples.

Results

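The miR-378 family was followed in gastrocnemius, the large calf muscle, of 14-day-old male B6CASTF1/J mice. Its members were the microRNA genes whose symbol in the GENCODE vM21 annotation is Mir378 with or without a letter. The rule found 4 of the 2202 genes in the deposited tables, which were Mir378a, Mir378b, Mir378c and Mir378d. B6CASTF1/J is a first-generation cross between a C57BL/6 and a CAST/EiJ parent, and no further allele or treatment is labelled. The study had 1 group of 2 biological replicates with 1 small RNA library each, for which the labels give a size range under 30 nt. The sample descriptions mention 3 males and both samples carry 1 donor identifier, so it is unclear from the labels whether animals were pooled, and the spread between replicates may be partly technical. No second tissue, age or treatment was sampled, so the members were described against the other microRNA genes and between the libraries.

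A microRNA is cut from a hairpin precursor into a mature strand that guides Argonaute proteins to messenger RNAs, mainly through the seed at bases 2 to 8. Mir378a sits within Ppargc1b, which encodes a coactivator that drives mitochondrial gene programmes, and its hairpin is made from the same primary transcript. In mouse, the microRNAs of this hairpin are known to target Crat, an enzyme of fatty acid and carnitine metabolism, and Med13, a subunit of the Mediator complex. In mouse myoblasts miR-378 is also known to repress the myogenic repressor MyoR. What the paralogs Mir378b, Mir378c and Mir378d do is less well known.

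The 3 paralogs shared a core sequence and differed at its ends and in the seed. Their mature forms are shown because those differences decide which locus a read can be given to, with the seed in capitals, from RefSeq on GRCm38.p6, 5′ to 3′. They are encoded on chromosomes 14, 10 and 11 in the order shown.
miR-378c: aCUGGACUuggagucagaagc
miR-378d: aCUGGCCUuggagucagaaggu
miR-378b: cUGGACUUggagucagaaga
With positions counted from 1 at the 5′ end of miR-378c and its base given first, miR-378d differed from it by A6C, inside the seed, and by C21G. The mature miR-378b started 1 base later and differed by C21A, so the same bases stood in another register and its seed was a different one. The 3 seeds thus differed from one another.

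The hairpins held this shared sequence on different arms. They are shown from the same RefSeq build with the mature microRNA in capitals.
Mir378b: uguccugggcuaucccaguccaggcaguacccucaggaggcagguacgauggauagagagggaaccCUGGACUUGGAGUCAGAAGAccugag
Mir378c: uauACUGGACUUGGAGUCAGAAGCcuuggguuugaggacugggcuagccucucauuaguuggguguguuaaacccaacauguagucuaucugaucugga
Mir378d: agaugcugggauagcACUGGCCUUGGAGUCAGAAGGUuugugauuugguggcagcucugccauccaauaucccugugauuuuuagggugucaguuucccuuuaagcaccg
In Mir378b the mature form lay at bases 67 to 86 of 92, near the 3′ end. It lay at bases 4 to 24 of 99 in Mir378c and at bases 16 to 37 of 110 in Mir378d, near the 5′ end of both. All 3 hairpins were identical to the transcripts of the same genes in GENCODE vM21. A search of 141767 GENCODE transcripts on either strand found the full mature form of each paralog in 0 genes other than its own. It covered exact matches only, and the genome outside annotated transcripts was not searched.

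The longest stretch that the Mir378a hairpin, 66 bases, had in common with a paralog was 20 bases with Mir378c, 19 bases with Mir378b and 15 bases with Mir378d. Between the paralogs it was 19 bases for Mir378b and Mir378c and 14 bases for either of them with Mir378d. Stretches of 20 bases in common with another microRNA gene at another place were found in 62 (24.0%) of the 258 genes that reached 10 CPM in each library. Reads that mapped to several loci were in no gene's count, so a read made only of such a stretch is missing from each gene's value. How many reads of the family were lost in this way was not measured.

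The members also differed in genomic setting, given here on mm10 with vM21. Mir378a (ENSMUSG00000105200.1) lies at 61397835 to 61397900 on the minus strand of chromosome 18. That place is 2531 bases from the start of Ppargc1b, in the intron after exon 1 of all 3 Ppargc1b transcripts that span it and on their strand. Mir378b (ENSMUSG00000092985.1, plus strand, chromosome 11, 88352773 to 88352864) lies in an intron of Msi2, which encodes an RNA-binding protein, but on the opposite strand. Mir378c (ENSMUSG00000099036.1, minus strand, chromosome 14, 46954830 to 46954928) likewise lies opposite to its surrounding gene, in an intron of Samd4, which encodes another RNA-binding protein. Mir378d (ENSMUSG00000098756.1, minus strand, chromosome 10, 126710282 to 126710391) overlaps no annotated gene. Only Mir378a therefore had a protein-coding host on its own strand.

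Levels were very uneven within the family. They are given as CPM (counts-per-million), the deposited count on the gene's own strand scaled to the sum over all microRNA genes, which was 2211254 in replicate 2 and 2743657 in replicate 1. A read spans a mature microRNA, so counts were compared between genes without division by gene length. Mir378a had 273391 counts in replicate 2 and 304399 in replicate 1, or 123636 and 110946 CPM. It was first in the order of all genes in both libraries, at 117291 ± 8973 CPM (SD, n = 2). This order rests on reads that mapped to 1 locus. Whether Mir378a would stay first with the other mapped reads counted was not tested. Its share of assigned counts was 12.4% in replicate 2, with a 95% Wilson interval from 12.3 to 12.4, and 11.1% in replicate 1, from 11.1 to 11.1, so 1 in 8.55 ± 0.654 assigned reads came from this hairpin. These intervals cover counting error only, since PCR reads are not independent molecules.

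The paralogs had low counts in both libraries. Whether some of these were misassigned reads of Mir378a, which shares a stretch of 20 bases with Mir378c, was not tested. Mir378c had 114 counts in replicate 2 and 123 in replicate 1, which is 51.6 CPM (95% Wilson interval 42.9 to 61.9) and 44.8 CPM (37.6 to 53.5). Mir378d had 62 and 74 counts in the same order, which is 28.0 CPM (21.9 to 35.9) and 27.0 CPM (21.5 to 33.9). Mir378b had 52 and 50 counts, which is 23.5 CPM (17.9 to 30.8) and 18.2 CPM (13.8 to 24.0). All 4 members were above the limit that a count of 0 allows, 3 counts or 1.36 CPM in replicate 2 and 1.09 CPM in replicate 1.

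**Figure D1:**
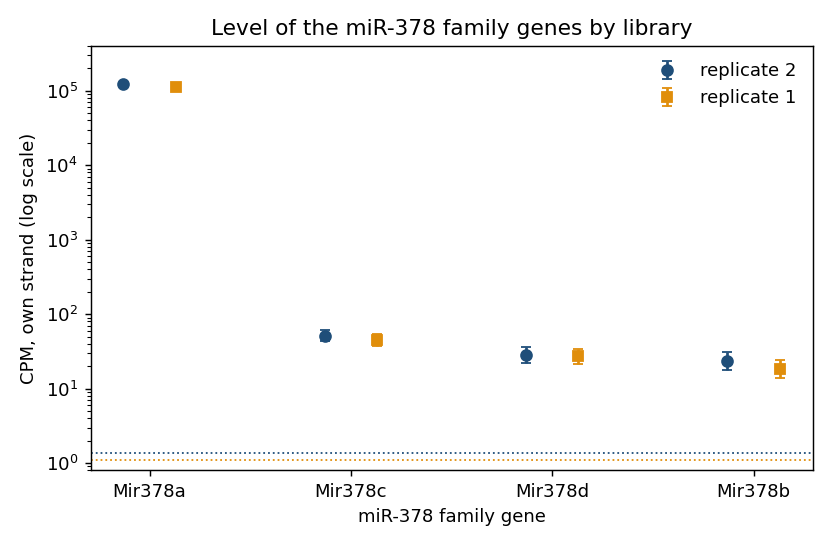
CPM on the own strand (log scale) of the 4 miR-378 family genes in replicate 2 (circles) and replicate 1 (squares), with 95% Wilson intervals that cover counting error only. Dotted lines mark the 3 counts that a count of 0 allows in each library. Mir378a sits at 123636 and 110946 CPM, and all paralog values lie between 18.2 and 51.6 CPM.

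In the order of mean levels the paralogs stood at place 203 (Mir378c, 48.2 ± 4.75 CPM), 224 (Mir378d, 27.5 ± 0.755 CPM) and 238 (Mir378b, 20.9 ± 3.74 CPM). Of 629 genes with a count, 391 were below Mir378b, and the 258 genes that reached 10 CPM in each library had a median of 260 CPM. Mir378c was 1.84 times Mir378d in replicate 2 (95% exact interval 1.34 to 2.55) and 1.66 times in replicate 1 (1.24 to 2.25). Mir378d was 1.19 times Mir378b in replicate 2 (0.811 to 1.76) and 1.48 times in replicate 1 (1.02 to 2.16). The place of Mir378c above the other paralogs therefore exceeded counting error in both libraries, and that of Mir378d above Mir378b did so in replicate 1 only.

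Mir378a was 2436 ± 54.2 times Mir378c, 4262 ± 209 times Mir378d and 5673 ± 587 times Mir378b (SD, n = 2). The 3 paralogs together held 228 counts in replicate 2 and 247 in replicate 1. They made up 0.0833% of the family's counts in replicate 2 (95% exact interval 0.0729 to 0.0949) and 0.0811% in replicate 1 (0.0713 to 0.0918). Both libraries thus gave the same split within counting error, on reads that mapped to 1 locus.

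**Figure D2:**
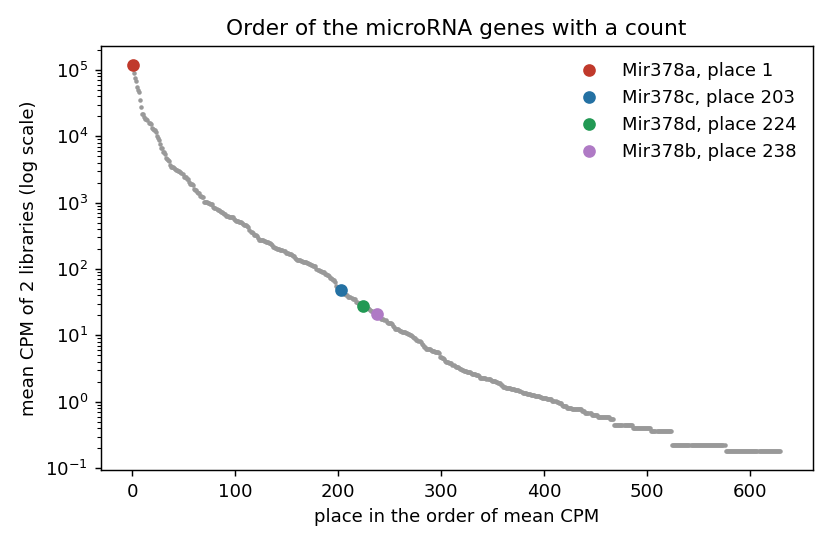
Mean CPM of 2 libraries (log scale) against the place of each of the 629 microRNA genes with a count, with the 4 miR-378 family genes coloured. On reads that mapped to 1 locus, Mir378a is at place 1. Mir378c, Mir378d and Mir378b lie at places 203, 224 and 238 on the falling part of the curve.

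Reads came from 1 strand at every member. Of the 4 genes, 0 had a read on the opposite strand in either library. Gm25301 (ENSMUSG00000093026.1, plus strand, chromosome 18, 61397813 to 61397925), an unnamed microRNA gene of 113 bases, is annotated across the whole of Mir378a on the opposite strand. On its own strand it had 0 counts in both libraries, and on its opposite strand 273391 in replicate 2 and 304399 in replicate 1, the same reads as those of Mir378a. Over all genes, the reads on the opposite strand exceeded those under overlapping genes by 30 in replicate 2 and 29 in replicate 1.

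This overlap decided whether Mir378a appeared at all. In the deposited column that counts either strand, a read under both genes is ambiguous, and Mir378a had 0 counts in both libraries. It alone made up 53.8% of the 508345 ambiguous reads in replicate 2 and 47.0% of the 647240 in replicate 1. The paralogs have no microRNA gene on the opposite strand, and their counts were identical in both columns. In that column Mir378c, at 62.8 CPM, was the highest member of the family.

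The level of Mir378a also depended on the reads taken as the total. Reads that mapped to several loci were 52.1% of all 8189059 reads in replicate 2 and 44.0% of 10056843 in replicate 1. Mir378a was 4.22% of assigned and multimapping reads in replicate 2 and 4.25% in replicate 1. Of all mapped reads it was 4.08% in both, and of all reads, unmapped ones included, 3.34% in replicate 2 and 3.03% in replicate 1. The higher CPM in replicate 2 was therefore not seen per mapped read.

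**Figure D3:**
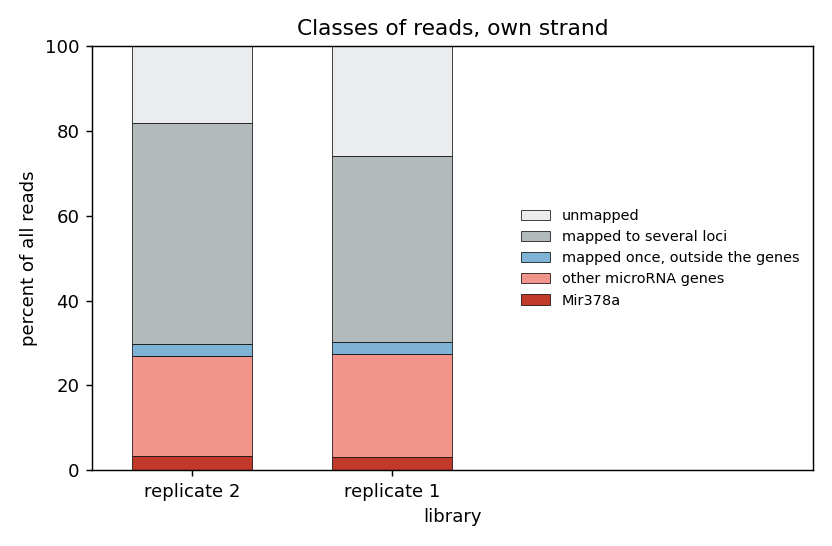
Percent of all reads by class in replicate 2 and replicate 1, counted on the own strand. Mir378a holds 3.34% and 3.03% of all reads, and the class that mapped to several loci, 52.1% and 44.0%, is larger than all microRNA genes together.

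The libraries were compared gene by gene with a two-sided exact binomial test on TMM-scaled library sizes over the 258 genes that reached 10 CPM in each, which tests these 2 libraries and covers counting error only. Mir378a had a log2 ratio of replicate 2 over replicate 1 of 0.14 (95% interval 0.13 to 0.15; exact binomial test, Benjamini-Hochberg adjusted p = 8.45e-289). By the same test 51.9% of the 258 genes passed, 62 (24.0%) higher and 72 (27.9%) lower in replicate 2, so being called did not set Mir378a apart. Its ratio was smaller in size than the median absolute log2 ratio of 0.18 over these genes, and 39.1% of them had a smaller one. With the spread between the libraries taken in (biological coefficient of variation 12.6%), edgeR's exact test did not pass for Mir378a (adjusted p = 0.99). That spread came from the same 2 libraries, so the difference under test was part of it. With library sizes from all mapped reads its log2 ratio was 0.00011 (exact binomial test, adjusted p = 0.985), and with assigned and multimapping reads it was −0.0094 (adjusted p = 0.0256). Those sizes also moved the median of all tested genes to −0.14 and −0.15, with 25 higher and 117 lower genes and 22 higher and 122 lower genes. Relative to that median Mir378a stood at 0.14 under both, against 0.15 with TMM.

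None of the paralogs passed the test. The log2 ratio was 0.33 for Mir378b (95% interval −0.24 to 0.94; exact binomial test, adjusted p = 0.341), 0.18 for Mir378c (−0.20 to 0.56; adjusted p = 0.443) and 0.04 for Mir378d (−0.47 to 0.54; adjusted p = 0.965). The paralogs rest on 50 to 123 counts per library. At like counts Mir31 passed the same exact binomial test with 81 and 66 counts (log2 ratio 0.57, adjusted p = 0.0329). Mir32, with 64 and 74 counts, did not (log2 ratio 0.08, exact binomial test, adjusted p = 0.808). Both are picked examples, and the share of genes that passed at such counts was not taken. At least 2-fold differences were found for 1.16% of the tested genes, and 0 of the 4 members were among them by either tool. The 3 genes at 1000 CPM or more whose log2 ratio was nearest to that of Mir378a were Mir23b, Mir501 and Mir26b, all at 0.14. Over 2 libraries this likeness rests on 1 ratio a gene.

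**Figure D4:**
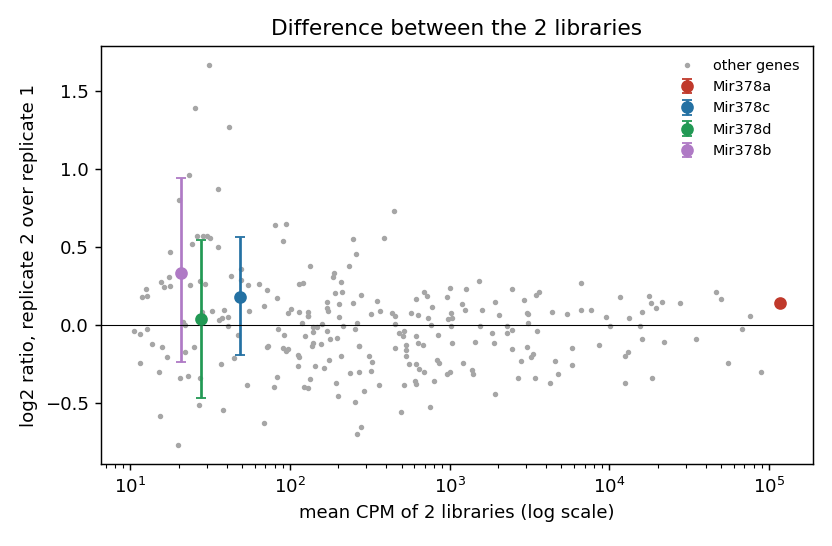
Log2 ratio of replicate 2 over replicate 1 (TMM sizes) against mean CPM (log scale) for the 258 tested genes, with 95% binomial intervals for the miR-378 family genes. Mir378a lies at 0.14 at the right end, and the intervals of the 3 paralogs include 0.

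The tissue label was checked against its marker microRNAs. All 9 listed skeletal muscle genes had a count, with a summed level of 69214 CPM in replicate 2 and 69535 CPM in replicate 1, nearly all of it Mir206. This sum leaves out reads mapped to several loci, so gene pairs such as Mir133a-1 and Mir133a-2 may stand too low in it. Mir378a is also known from heart, liver and brown fat, and whether any of its reads came from these was not tested. Mir208a of the heart had 0 counts in replicate 2 and 7 in replicate 1. Mir122 of the liver was at 120 ± 16.8 CPM, and the 4 genes of the brown adipocyte list together at 179 ± 7.73 CPM. Mir378a was thus 981 ± 62.7 times Mir122 and 656 ± 21.8 times that sum. The brown adipocyte sum also leaves out reads mapped to several loci, so Mir365-1 and Mir365-2 may stand too low in it. Of 7 neuronal genes 2 had a count, and the list summed to 48.4 CPM in replicate 2 against 14.2 CPM in replicate 1. Nearly all of it was Mir137, with 106 and 39 counts in that order (log2 ratio 1.67; exact binomial test, adjusted p = 3.8e-11), 1 of the 3 genes that differed at least 2-fold. The 3 Mir124a loci were at 0, in counts that leave out reads mapped to several loci. Between the libraries, the erythroid markers summed to 571 CPM in replicate 2 against 384 CPM in replicate 1, and endothelial Mir126a stood at 80432 CPM against 98087 CPM in that order. The part of the neuronal, erythroid and endothelial markers in the difference of Mir378a was not tested.

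Mir378a was then set against the genes that followed it. Its ratio to Mir126a, a microRNA of endothelial cells, was 1.54 in replicate 2 and 1.13 in replicate 1, and to Mir127 of the imprinted Dlk1-Dio3 locus 1.60 and 1.51. Against Mir206, a promoter of myoblast differentiation found in skeletal muscle, the ratio was 1.82 in replicate 2 and 1.62 in replicate 1. It averaged 2.14 ± 0.403 against Mir411 and 2.34 ± 0.0281 against Mirlet7i (SD, n = 2). Mir378a was the higher gene in both libraries in all 5 pairs, by the smallest margin over Mir126a in replicate 1. Being higher followed from its first place in each library, since the 5 genes were chosen as the next highest.

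Within introns Mir378a was far ahead on reads that mapped to 1 locus. The annotation placed 733 of the 2202 microRNA genes in an intron of a protein-coding gene on the same strand, of which 88 reached 10 CPM in both libraries. A gene that overlapped an exon of any host transcript was left out. Mir126a in Egfl7, at 89259 ± 12484 CPM, was left out by this rule. These genes held 30.8% ± 1.99 of assigned counts. Mir378a alone was 38.4% of the intronic counts in replicate 2 and 37.7% in replicate 1. Mirlet7g in Wdr82 followed at 46287 ± 5137 CPM, Mir23b in 2010111I01Rik at 27505 ± 2120 CPM and Mir26b in Ctdsp1, a phosphatase gene, at 18297 ± 1423 CPM. Mir335 in the imprinted gene Mest was at 17671 ± 1724 CPM. Mir378a was 0.614 ± 0.0118 times all other intronic counts together. The host transcript was not measured here, since the tables hold microRNA genes only.

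**Figure D5:**
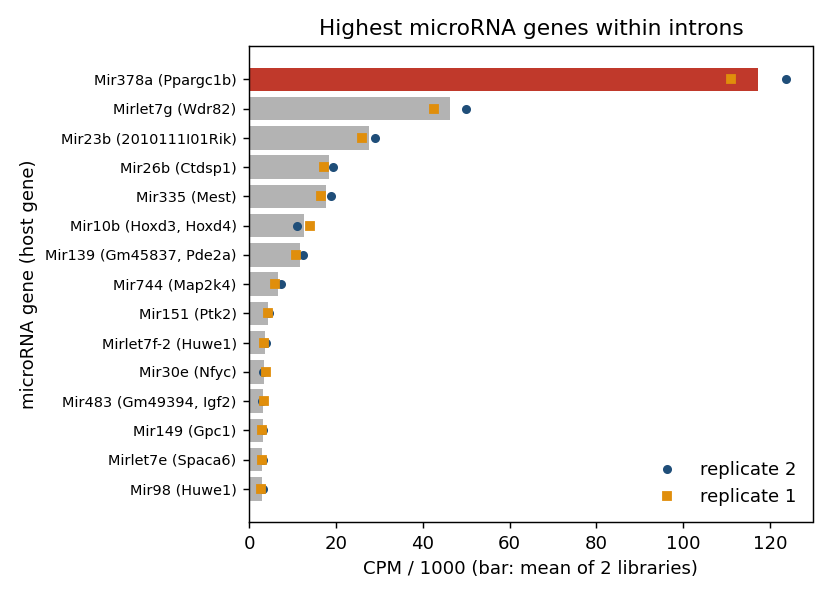
Mean level in CPM divided by 1000 (bars, from 0) of the 15 highest microRNA genes within introns of a same-strand protein-coding gene, named in brackets, with replicate 2 as circles and replicate 1 as squares. Mir378a in Ppargc1b, at a mean of 117291 CPM, is above Mirlet7g in Wdr82 at 46287 CPM in both libraries.

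Neighbouring microRNA genes on the chromosome had other levels. Within 500 kb of Mir378a lie Mir143 and Mir145a, 251 and 250 kb away on the same strand and known from vascular smooth muscle. Mir143 was at 34797 ± 1266 CPM and Mir145a at 1015 ± 4.69 CPM, so Mir378a was 3.38 ± 0.381 times Mir143 and 116 ± 8.31 times Mir145a. Mir143 was lower in replicate 2 (log2 ratio −0.09; exact binomial test, adjusted p = 2.76e-38), where Mir378a was higher. Mir6982 had 2 counts in replicate 2 and 0 in replicate 1, Mir6983 had 1 in each, and Mir7220 had 0 in both. Near Mir378d, at 285 kb, lies Mir26a-2 in Ctdsp2, at 83.1 ± 7.78 CPM, and Mir546 at 288 kb had 0 counts in replicate 2 and 1 in replicate 1. Reads mapped to several loci are left out, so Mir26a-2, which has a pair in Mir26a-1, may stand too low. Within 500 kb of Mir378b and Mir378c there was no other microRNA gene.

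Other microRNAs tied to oxidative metabolism and mitochondria were far lower, in counts that leave out reads mapped to several loci. How many reads gene pairs among them, such as Mir103-1 and Mir103-2, lost in this way was not measured. Of 22 genes on this list 21 were in the tables and 20 had a count, with a summed level of 32931 CPM in replicate 2 and 31181 CPM in replicate 1, so Mir378a was 3.66 ± 0.139 times the whole list. Most of it was Mir23a, which is known to repress Ppargc1a, the paralog of Ppargc1b, at 21316 ± 1742 CPM. Mir27b was at 4750 ± 687 CPM and Mir149 at 3070 ± 131 CPM. Mir27a was at 618 ± 71.9 CPM and Mir338 at 366 ± 19.4 CPM. Mir494, known to target the mitochondrial transcription factor Tfam, was at 456 ± 5.70 CPM. The slow-fibre microRNAs in myosin genes were lower still, Mir499 at 277 ± 85.7 CPM and Mir208b at 84.3 ± 0.314 CPM. Between the libraries 6 of the 14 tested members were higher and 3 lower in replicate 2, 9 in all, with a median log2 ratio of 0.07 beside −0.008 for all 258 genes and 51.9% called. Mir23a (log2 ratio 0.15) was among those higher and Mir499 (−0.66) among those lower (exact binomial test, adjusted p = 1.58e-61 and 8.35e-16).

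In counts that leave out reads mapped to several loci, the list for myogenic differentiation was below Mir378a in total in both libraries. How many reads its gene pairs, such as Mir1a-1 and Mir1a-2, lost in this way was not measured. All 21 genes had a count, and together they held 91531 CPM in replicate 2 and 93223 CPM in replicate 1, so Mir378a was 1.27 ± 0.114 times their sum. Mir206 made up most of it, followed by Mir322, which promotes cell cycle exit of myoblasts, at 13175 ± 388 CPM. Mir27b, which targets Pax3, was at the level given above, and Mir214 was at 4223 ± 728 CPM. Mir486 was at 611 ± 55.7 CPM and Mir181a-1 at 270 ± 15.4 CPM. Of the 18 tested genes 6 were higher and 5 lower in replicate 2, with a median log2 ratio of 0.009, beside −0.008 and 51.9% called (24.0% higher, 27.9% lower) over all 258 genes.

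The genes nearest to the paralogs in level were of mixed kinds, in counts that leave out reads mapped to several loci. Genes with a paired locus, such as Mir30c-1 and Mir181a-2, may therefore stand too low. On either side of Mir378c stood Mir30c-1 at 49.0 ± 7.45 CPM and Mir669c at 47.3 ± 1.08 CPM. Mir378d was flanked by Mir32 at 28.0 ± 1.39 CPM and Mir672 at 27.4 ± 4.16 CPM. Mir378b was flanked by Mir190b at 21.4 ± 0.401 CPM and Mir701 at 20.5 ± 3.45 CPM. Mir133b, at 26.2 ± 7.69 CPM, and Mir181a-2, at 27.1 ± 4.44 CPM, were among the 5 places below Mir378d. The flanking genes were chosen for nearness in level. Their difference from each paralog was thus small by choice, below the larger SD of the pair.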

How the data were processed

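Small RNA libraries of 2 gastrocnemius samples were used, with 2211254 (replicate 2) and 2743657 (replicate 1) reads assigned on the own strand. The deposited values are raw counts of reads for each microRNA gene, in 3 columns for either, own and opposite strand, made on mm10 with annotation M21 per the deposited notes. The aligner, counter and versions are not given in the sources used here. Lines for unmapped, multimapping, gene-free and ambiguous reads stayed out of library sizes. All 2202 identifiers matched GENCODE vM21. The own-strand column was used, because genes annotated on opposite strands lose their reads in the other.

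CPM and Wilson and exact intervals came from scipy 1.17.1. Library sizes were TMM-scaled over the tested genes with edgeR 4.0.16 in R 4.3.3. The two-sided exact binomial test was run on every gene at 10 CPM or more in both libraries, with Benjamini-Hochberg adjustment at 0.05. It was also run on simulated counts that held counting error only. That run cannot show how the test behaves with the spread between these libraries. Log2 ratios are of CPM + 1. With 1 group, edgeR's quasi-likelihood test had no contrast. The exact test of edgeR used the common dispersion, estimated from the same libraries that it compared. DESeq2 1.42.0 gave alternative size factors. Hairpins came from GENCODE transcripts and printed sequences from RefSeq.

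The members and lists were chosen with earlier results of these data known. Named were the members and their opposite-strand partner, the 5 next highest genes, level neighbours, microRNA genes within 500 kb, the highest hosted genes, the 3 nearest library ratios, and examples of each list. The level neighbours, of which 1 on each side is named, and 2 further ones near Mir378d, and Mir499 and Mir208b of the oxidative list, were picked after their values were seen. So were Mir31 and Mir32 as examples at like counts. Alternatives were other totals, scalings, filters, strands and single libraries.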

Additional observations from a re-analysis of the deposited data

How the results depend on the processing

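On reads that mapped to 1 locus, the first place of Mir378a among all and among intronic microRNA genes held in either library alone (110946 to 123636 CPM). So did its ratios to Mir126a (1.13 to 1.54) and Mir206 (1.62 to 1.82), both above 1. Being first in introns and above both genes follows from first place among all genes, so neither adds to it. With either strand counted the level of Mir378a was 0 CPM, its place 602 and both ratios 0, because its reads are ambiguous there. Mir126a is lost there too, with 1 count in each library, so the ratio to Mir126a says nothing of Mir378a there. Its level was 132935 CPM with Mir378a left out of the total, 42346 with multimapping reads added to it and 31826 with all reads as the total. Its log2 ratio between libraries was called with TMM, total-count, DESeq2 and Mir378a-free sizes and under both other filters, at 0.11 to 0.19. It was −0.0094 with assigned and multimapping reads as sizes and 0.00011 with all mapped reads, both chosen after seeing the data, and edgeR's exact test gave adjusted p = 0.99 at 0.14. Mir378d, not called, turned to −0.0996 and −0.0907 under those 2 sizes. Calls over all genes numbered 134, and 3 with edgeR's exact test. At least 2-fold, 10 were called with every gene that had a count, against 3. At 100 CPM or more 0 were called by the exact binomial test, with 0 at an unadjusted p under 0.05 and 0 by edgeR's exact test. No paired analysis was possible because there was 1 group. At 50 to 123 counts per library the paralogs' 95% intervals for the log2 ratio reached from −0.47 to 0.94.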
